A study of Mus musculus with 24 samples.

Results

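The guanylate-binding protein genes Gbp2, Gbp3, Gbp4, Gbp5, Gbp6, Gbp7, Gbp8 and Gbp9, and the microRNA gene Mir6381, which overlaps Gbp2 on the opposite strand, were followed across mouse bone marrow-derived macrophages (BMDMs). They were chosen by symbol and are 9 of the 24557 genes of the count table. These cells were grown from marrow precursors of Ltb4r2-/- mice, which globally lack the leukotriene receptor BLT2, and of their WT littermates. The growth factor M-CSF (10 ng/ml) was given to all of them over 7 days. M0 cells stayed unpolarized, M1-like cells were treated for 16 h with lipopolysaccharide (LPS, 10 ng/ml) and interferon-γ (IFN-γ, 25 ng/ml), and M2-like cells for the same time with interleukin-4 (IL-4, 10 ng/ml). Each of the 6 genotype-by-state groups had 4 libraries of polyadenylated RNA, labelled as biological replicates. The Ltb4r2-/- line was kept on a C57BL/6J background. The age of the mice that gave marrow is not given in the sources used here, nor is it stated whether one mouse gave cells for several states.

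Guanylate-binding proteins (GBPs) are large GTPases of the dynamin superfamily that are known as interferon-induced defence proteins of macrophages. IFN-γ acts through its receptor and the kinases JAK1 and JAK2, and promoters of genes that respond to interferons often hold GAS and ISRE elements. The proteins gather on bacteria and on the vacuoles of intracellular parasites, where they help to break the vacuole and to bring LPS and microbial DNA to inflammasomes, the complexes that start pyroptosis. In the mouse the genes lie in clusters on chromosomes 3 and 5.

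Mir6381 lies on the minus strand of chromosome 3 from 142623860 to 142623946 (GRCm38, the mm10 build, GENCODE M21) and is 87 bases long. Gbp2 lies on the plus strand from 142620602 to 142638008, with 11 exons. The last 24 bases of its coding exon 2 (142623670 to 142623883) lie opposite Mir6381, and the other 63 bases of Mir6381 lie opposite the following intron. The overlap is 0.954% of the 2516 bases of the Gbp2 transcript. The sequences are shown because they hold the 24 shared bases. In the mature microRNA of RefSeq (GRCm38.p6) capitals mark the seed, bases 2 to 8, in the precursor they mark the 24 bases opposite the Gbp2 exon, and in the Gbp2 mRNA, which is read here across the junction of exons 2 and 3, they mark the same 24 bases on the Gbp2 strand. The mature microRNA is bases 2 to 22 of the precursor and has 0 bases opposite the exon.
mmu-miR-6381, mature: cAGGAUGCuggugacaugagu
Mir6381 precursor: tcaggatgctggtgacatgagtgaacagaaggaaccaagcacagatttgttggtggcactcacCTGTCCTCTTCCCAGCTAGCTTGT
Gbp2 mRNA across the exon junction: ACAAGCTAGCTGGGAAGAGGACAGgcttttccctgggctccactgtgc

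**Figure D1:**
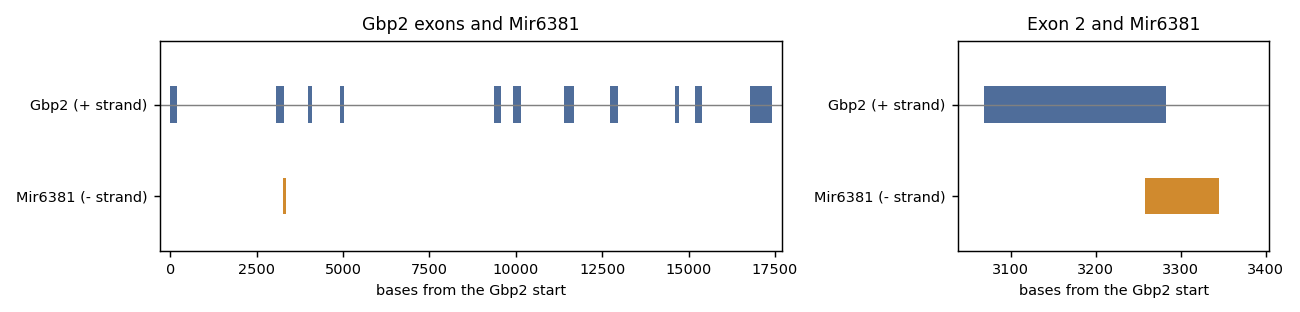
Map of the 11 Gbp2 exons (blue, plus strand) and Mir6381 (orange, minus strand), in bases from the Gbp2 start, with exon 2 enlarged on the right. Of the 87 bases of Mir6381, 24 face exon 2 and 63 face the intron after it.

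Gbp5 (142493978 to 142522344), Gbp7 (142530342 to 142550149), Gbp3 (142560026 to 142573209) and Gbp2 follow each other on the plus strand of chromosome 3. Gbp8 (105014150 to 105139540), Gbp9 (105077630 to 105139539), Gbp4 (105115767 to 105139586) and Gbp6 (105270702 to 105293698) lie on the minus strand of chromosome 5. Gbp4, Gbp8 and Gbp9 share 60 or 61 bases of exon on the same strand, and GBPs of one cluster are close in sequence, so the split of reads among them is uncertain. Gbp2 was the 1 of the 8 GBP genes with an exon of another gene opposite its own. RefSeq promoters were at hand for 4 of the 9 genes, those of the chromosome 3 cluster. They are shown because each of these genes was higher in M1 than in M0, as were Gbp4 and Gbp6 of chromosome 5. The 250 bases before each start follow, with capitals for matches to ISRE letters (GAAA and GAAA with NN between them) and GAS letters (TTCNNNGAA) on either strand.
Gbp5 promoter, chr3:142496684-142496933: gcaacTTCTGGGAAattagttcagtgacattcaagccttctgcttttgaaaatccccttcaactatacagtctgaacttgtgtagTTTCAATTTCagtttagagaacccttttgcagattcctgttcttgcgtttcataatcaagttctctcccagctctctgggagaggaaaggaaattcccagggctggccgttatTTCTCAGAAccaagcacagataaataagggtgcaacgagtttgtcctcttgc
Gbp7 promoter, chr3:142530086-142530335: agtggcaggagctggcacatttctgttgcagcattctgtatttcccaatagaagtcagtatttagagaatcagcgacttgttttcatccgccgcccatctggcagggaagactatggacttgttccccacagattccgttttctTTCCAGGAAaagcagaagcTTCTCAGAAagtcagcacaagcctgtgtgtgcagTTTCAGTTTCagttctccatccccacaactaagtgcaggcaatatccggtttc
Gbp3 promoter, chr3:142559794-142560043: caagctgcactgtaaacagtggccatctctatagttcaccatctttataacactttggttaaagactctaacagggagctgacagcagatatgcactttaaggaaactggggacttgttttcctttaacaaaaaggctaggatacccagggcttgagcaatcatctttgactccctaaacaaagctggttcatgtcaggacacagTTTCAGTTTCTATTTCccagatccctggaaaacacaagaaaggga
Gbp2 promoter, chr3:142620413-142620662: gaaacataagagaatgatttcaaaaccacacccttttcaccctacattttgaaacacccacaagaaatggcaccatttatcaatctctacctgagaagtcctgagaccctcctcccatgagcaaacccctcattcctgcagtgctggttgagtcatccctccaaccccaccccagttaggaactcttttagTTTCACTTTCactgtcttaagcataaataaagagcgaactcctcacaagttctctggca

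The Gbp5 promoter held an ISRE match at -165 to -156 and GAS matches at -245 to -237 and -52 to -44. Its RefSeq window, which ends at 142496933, lies inside the Gbp5 gene of GENCODE, which starts at 142493978. The Gbp7 promoter held an ISRE match at -53 to -44 and GAS matches at -106 to -98 and -87 to -79. In the Gbp3 promoter ISRE matches at -45 to -36 and -39 to -30 overlapped each other, and the window of a second Gbp3 start held no match. Gbp2 had an ISRE match at -59 to -50. Over all RefSeq promoters of the same length, from 250 bases before to 50 after the start, 1131 of 32851 (3.44%) held the ISRE letters and 2726 (8.30%) the GAS letters. A match is a run of letters and was not tested as a binding site.

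The libraries held 427825 to 729580 counts, and 5933 to 7315 genes had a count in a library. A count of 3, the floor used here, corresponds to 4.12 to 8.36 CPM, the count scaled to the TMM-adjusted size of its library. Ltb4r2 had 0 counts in all 12 WT libraries and 0 to 5 counts in the 12 libraries labelled Ltb4r2-/-, so the targeted gene did not check the labels. Genes with an exon opposite that of another gene were 24.1% of the 24004 genes that could be placed, and 90.3% of the placed counts fell on them. The libraries were described as strand-specific, but the sources used here do not give the strand with which reads were counted. Which strand the reads counted under Mir6381, Gbp2 or any other gene came from therefore cannot be told apart. A low or absent count of a gene need not show the level of its own RNA.

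Mir6381 held more counts than any GBP gene in every library, and it rose in M1 cells of both genotypes. In M1 it had 29152, 33443, 23992 and 24952 counts in the libraries labelled Ltb4r2-/-, against 209, 311, 315 and 217 in their M0 libraries. The WT cells gave 35230, 39288, 27671 and 27525 counts in M1, against 255, 190, 213 and 302 in M0. Every M1 library thus lay above every M0 library. The log2 fold change was 7.38 in Ltb4r2-/- (standard error 0.21, adjusted p = 2.54e-24, quasi-likelihood test of edgeR) and 7.41 in WT (standard error 0.21, adjusted p = 2.40e-24), in a fit of 3047 genes.

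Mir6381 took 4.62% to 5.46% of all counts of an M1 library labelled Ltb4r2-/- and 5.03% to 5.48% of a WT M1 library, and ranked second among all genes in each of the 8. It took 0.0382% to 0.0678% of the M0 libraries of both genotypes. Of 1174 genes named Mir in the table, 129 had a count, and Mir6381 held 88.7% of their 280130 counts. The next was Mir6340, with 10249 counts against 248544 for Mir6381 over the 24 libraries. Of the 18 Mir genes with at least 100 counts, 16 lay opposite an exon of another gene. Among them Mir1896, Mir3082 and Mir1901 also lay over an exon of a gene on their own strand. Of all placed genes 24.1% had an exon opposite that of another gene, and the share among all Mir genes was not counted. The part of the opposite strand in the counts of Mir genes was not tested.

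**Figure D2:**
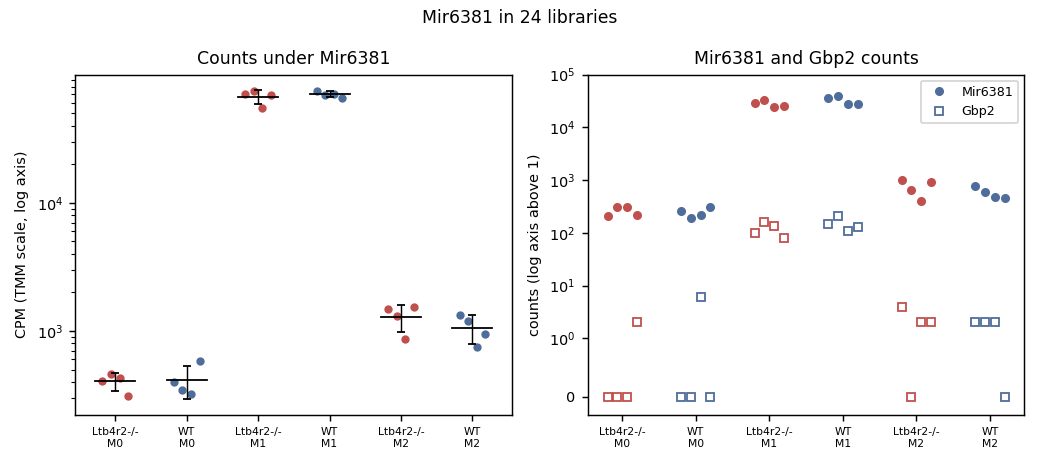
Left, CPM under Mir6381 in each of 24 libraries on a log axis, with the mean and SD of 4 libraries (red, labelled Ltb4r2-/-, blue, WT). Right, counts under Mir6381 (filled circles) and Gbp2 (open squares) in the same libraries, on a log axis above 1. The M1 libraries hold 23992 to 39288 Mir6381 counts and 81 to 210 Gbp2 counts.

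Gbp2, a GBP that coats parasite vacuoles and bacteria, rose in M1 cells on a much smaller number of counts. It had 99, 160, 132 and 81 counts in the M1 libraries labelled Ltb4r2-/-, against 0, 0, 0 and 2 in M0. WT libraries had 150, 210, 110 and 131 counts in M1, against 0, 0, 6 and 0 in M0. No M1 library overlapped an M0 library. The log2 fold change was 8.14 in Ltb4r2-/- (standard error 0.52, adjusted p = 2.28e-15 from edgeR) and 6.87 in WT (standard error 0.45, adjusted p = 5.14e-15). With 2 counts in M0, the ratio of summed CPM in Ltb4r2-/- was 371 with an exact 95% counting interval of 102 to 3069, which covers counting error only. The fold rested on 1 M0 library in each genotype, since without Ltb4r2-/- M0 replicate 4 it was 10.21 and without WT M0 replicate 3 it was 10.39, both against a group at 0.

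Of the counts under Gbp2 and Mir6381 together, Mir6381 made up 99.6 ± 0.108% in M1 libraries labelled Ltb4r2-/- and 99.5 ± 0.0596% in WT M1 libraries (SD, n = 4). The means differed by 0.035 percentage points, within the spread of the libraries (exact two-sided permutation test, p = 0.6). There were 182 to 308 Mir6381 counts for each Gbp2 count in the M1 libraries labelled Ltb4r2-/- and 187 to 252 in WT M1.

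Gbp5, which is linked to inflammasome activation in mouse macrophages, had 71, 99, 52 and 66 counts in M1 libraries labelled Ltb4r2-/-, against 4, 3, 4 and 0 in M0. Its WT counts were 77, 119, 57 and 83 in M1, against 8, 2, 11 and 4 in M0. It rose by 5.28 on the log2 scale in Ltb4r2-/- (standard error 0.45, adjusted p = 5.64e-12 from edgeR) and by 4.07 in WT (standard error 0.40, adjusted p = 1.49e-10). Gbp5 and Gbp7 were the GBP genes whose M0 counts were above 0 in most libraries.

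Gbp7, which takes part in assembling the phagocyte NADPH oxidase in mice, had 92, 87, 106 and 81 counts in M1 libraries labelled Ltb4r2-/-, against 12, 4, 17 and 18 in M0. In WT it had 116, 112, 95 and 94 counts in M1, against 4, 4, 13 and 6 in M0. It rose by 3.48 in Ltb4r2-/- (standard error 0.34, adjusted p = 1.06e-10 from edgeR) and by 4.29 in WT (standard error 0.37, adjusted p = 6.28e-12). As for Gbp5, the M1 and M0 libraries did not overlap in either genotype.

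Gbp3, a member of the same cluster, had 11, 24, 9 and 9 counts in M1 libraries labelled Ltb4r2-/-, against 0, 0, 0 and 6 in M0 (log2 fold change 3.67, standard error 0.77, adjusted p = 2.01e-04 from edgeR). Without Ltb4r2-/- M0 replicate 4, which held all 6 M0 counts, the log2 fold change was 7.06. In WT it had 18, 27, 13 and 23 counts in M1 and 0 in each M0 library, which with the 4 M0 libraries set to 3 counts in sum made M1 at least 34.5-fold higher (adjusted p = 1.68e-06).

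Among the genes of chromosome 5, Gbp4 and Gbp6 were counted in M1 libraries and had 0 counts in all 16 M0 and M2 libraries. Gbp4 had 31, 62, 71 and 57 counts in M1 libraries labelled Ltb4r2-/-, at least 116-fold higher than in M0 (adjusted p = 4.36e-10 from edgeR), and 25, 71, 35 and 36 in WT M1, at least 71.1-fold higher than in M0 (adjusted p = 3.64e-09). Gbp6, whose protein is found at the vacuole of Toxoplasma in mouse cells, had 20, 30, 12 and 33 counts in M1 libraries labelled Ltb4r2-/-, at least 49.7-fold higher than in M0 (adjusted p = 1.53e-07), and 35, 33, 13 and 16 in WT M1, at least 41.3-fold higher (adjusted p = 3.62e-07). Both genes thus had counts in M1 and no counts in the other states, at this depth and with the counted strand not given.

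Gbp9 and Gbp8 had too few counts for the fit. Gbp9, also found at Toxoplasma vacuoles in mouse cells, had 6, 9, 9 and 11 counts in M1 libraries labelled Ltb4r2-/-, at least 18.3-fold higher than the 0 counts of M0. Its WT counts were 0, 11, 12 and 6 in M1, against 3, 3, 0 and 0 in M0, so that these libraries overlapped. Gbp8 had 0, 0, 2 and 2 counts in M1 libraries labelled Ltb4r2-/- and 4, 4, 0 and 2 in WT M1, and 2 counts in 1 of the other 16 libraries.

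The test was thus run on 7 of the 9 genes, and all 7 were higher in M1 in both genotypes, where 27.2% of all genes tested were higher in Ltb4r2-/- and 26.9% in WT. Gbp2, Gbp3, Gbp4, Gbp5 and Gbp6 passed the filter on low counts through their M1 libraries, so that for them a difference from M0 was built into passing. Gbp7 and Mir6381 passed in the M0 libraries alone too. In bulk RNA fewer cells of a kind and less RNA per cell cannot be told apart.

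**Figure D3:**
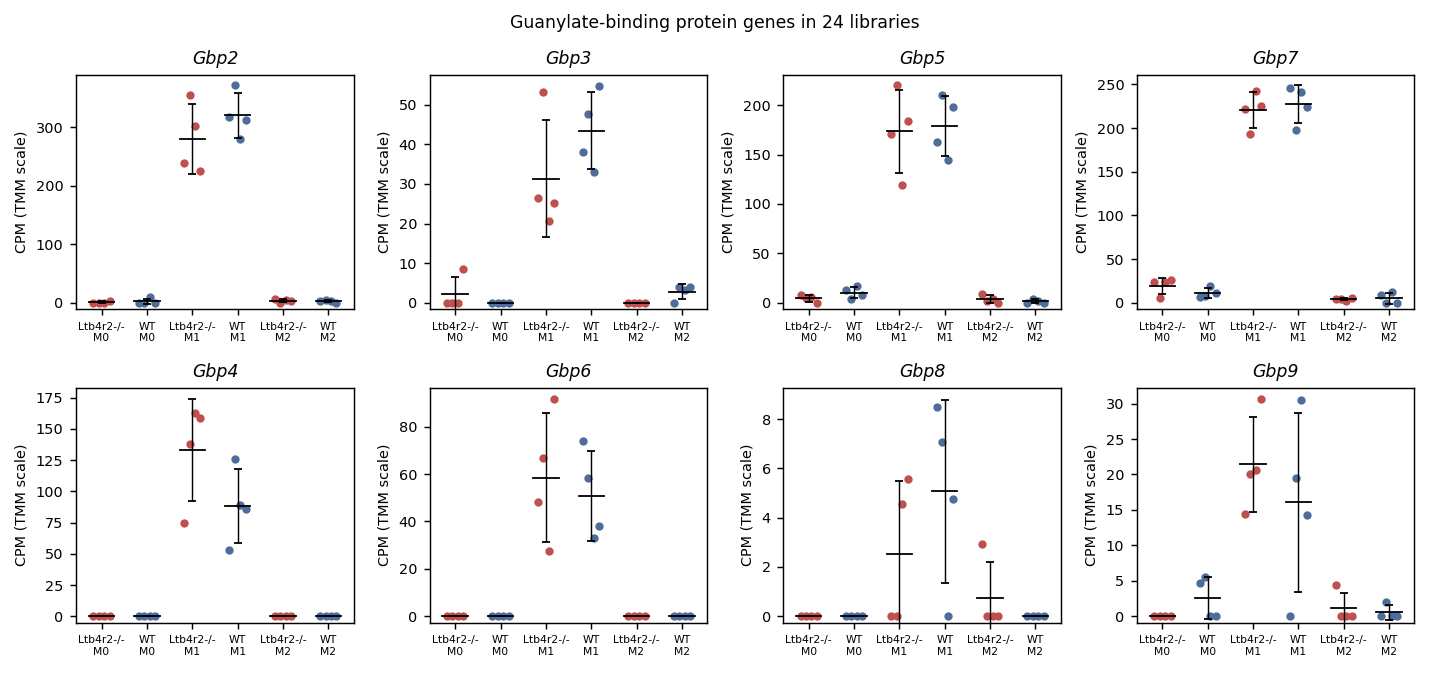
CPM (TMM scale) of 8 GBP genes in each of 24 libraries, with a bar for the mean and whiskers for the SD of 4 libraries (red, labelled Ltb4r2-/-, blue, WT). Gbp4 and Gbp6 sit at 0 in M0 and M2, and in M1 the red and blue points of each gene overlap.

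Per kilobase of exon, and by the counts as they stand, Gbp2 had the highest level in M1. The counted strand is not given and the split of reads among GBPs is uncertain, so the order holds for these counts only. Gbp2 had 111 ± 23.9 CPM per kilobase in libraries labelled Ltb4r2-/- and 127 ± 15.2 in WT (SD, n = 4). Gbp7 followed with 39.3 ± 3.64 and 40.5 ± 3.84 CPM per kilobase, and Gbp5 with 26.1 ± 6.30 and 27.0 ± 4.58. Below them Gbp4 (17.8 ± 5.43 in Ltb4r2-/-, 11.8 ± 3.96 in WT), Gbp6 (9.83 ± 4.61, 8.55 ± 3.18) and Gbp3 (9.61 ± 4.55, 13.3 ± 2.98) lay within each other's spread, and in Ltb4r2-/- so did Gbp5 and Gbp4. Gbp9 and Gbp8 were lowest, at 4.14 ± 1.31 and 0.737 ± 0.859 CPM per kilobase in Ltb4r2-/- and 3.10 ± 2.45 and 1.47 ± 1.08 in WT. Summed over the 8 GBP genes, the level was 922 ± 105 CPM in Ltb4r2-/- M1 and 930 ± 79.4 CPM in WT M1, against 26.9 ± 11.6 and 26.2 ± 13.2 CPM in M0. The genes of chromosome 3 gave 69.7% to 82.7% of these M1 counts in libraries labelled Ltb4r2-/- and 79.7% to 84.9% in WT.

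**Figure D4:**
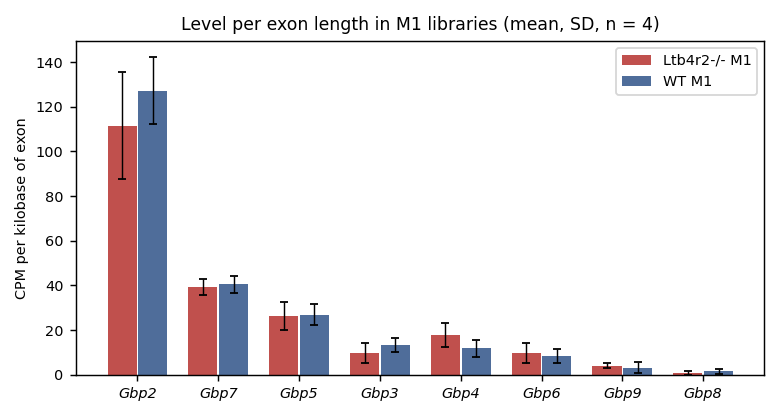
Mean level in M1 libraries as CPM per kilobase of exon, with the SD of 4 libraries as whiskers (red, labelled Ltb4r2-/-, blue, WT). By the counts as they stand, Gbp2 is above the other 7 genes in both genotypes, at 111 and 127.

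Between the genotypes, levels of the GBP genes and Mir6381 in M1 differed by less than could be told from the spread of the libraries. Of the 7 genes tested, 0 passed an adjusted p of 0.05 in edgeR, where 0.0509% of 1963 genes did, 0 had an unadjusted p under 0.05, and DESeq2 called 0. Gbp4 came closest, with 133 ± 40.7 CPM in M1 libraries labelled Ltb4r2-/- and 88.3 ± 29.7 CPM in WT M1 (SD, n = 4), and its ranges overlapped. Its log2 fold change was 0.59 (95% interval -0.01 to 1.19, unadjusted p = 0.0521, adjusted p = 0.638 from edgeR). Gbp3 had -0.46 (95% interval -1.25 to 0.33, adjusted p = 0.820 from edgeR), on 31.4 ± 14.9 and 43.4 ± 9.74 CPM.

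Gbp2 had 280 ± 60.2 CPM in M1 libraries labelled Ltb4r2-/- and 320 ± 38.2 CPM in WT M1 (SD, n = 4), a log2 fold change of -0.18 (95% interval -0.51 to 0.15). Gbp5 had -0.05 (-0.46 to 0.36), Gbp7 -0.03 (-0.34 to 0.28) and Gbp6 0.18 (-0.60 to 0.95). For Mir6381, with 67210 ± 8488 and 69989 ± 3700 CPM, it was -0.05 (-0.19 to 0.09), the narrowest of the 7.

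**Figure D5:**
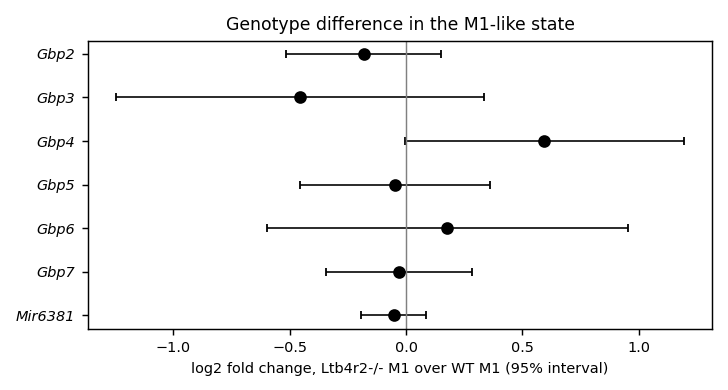
Log2 fold change of M1 libraries labelled Ltb4r2-/- over WT M1 libraries (4 each) for the 7 genes tested, with 95% intervals. Every interval includes 0, from -0.19 to 0.09 for Mir6381 and from -0.01 to 1.19 for Gbp4.

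In M0, 2 of the 9 genes had counts enough for the test and 0 were called, against 0.131% of 2283 genes. Gbp7 had 19.6 ± 9.18 CPM in libraries labelled Ltb4r2-/- and 11.2 ± 6.11 CPM in WT (SD, n = 4, log2 fold change 0.76, standard error 0.52, adjusted p = 0.900 from edgeR), and Mir6381 had 404 ± 65.9 and 413 ± 119 CPM (-0.04, standard error 0.16). In M2, Mir6381 alone was tested, at 1295 ± 308 CPM in Ltb4r2-/- and 1058 ± 261 CPM in WT (0.31, standard error 0.19, adjusted p = 0.999), where 0.19% of 2110 genes were called. None of the genes tested in M0 or M2 had an unadjusted p under 0.05 or a call by DESeq2. By exact two-sided permutation of 4 against 4 libraries, which cannot go below p = 0.0286, the combinations of gene and state with counts gave p of 0.143 or more, the smallest for Gbp4 in M1 and Gbp3 in M2.

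Mir6381 was also higher in cells polarized with IL-4, below the range of the M1 libraries. In M2 it had 1013, 636, 405 and 925 counts in libraries labelled Ltb4r2-/-, against 209, 311, 315 and 217 in M0, and in WT 774, 591, 469 and 466 counts, against 255, 190, 213 and 302. The CPM of M2 and M0 libraries did not overlap in either genotype. It rose by 1.68 on the log2 scale in Ltb4r2-/- (standard error 0.17, adjusted p = 9.02e-10 from edgeR) and by 1.36 in WT (standard error 0.17, adjusted p = 1.05e-07), where 17% of genes tested were higher in Ltb4r2-/- M2 and 15.2% in WT M2. Gbp2 had 4, 0, 2 and 2 counts in M2 libraries labelled Ltb4r2-/- (log2 fold change over M0 1.92, standard error 1.03, adjusted p = 0.158 from edgeR) and 2, 2, 2 and 0 in WT M2 (0.11, standard error 0.91, adjusted p = 0.955), and did not pass the test. Gbp3 had 0 counts in M2 libraries labelled Ltb4r2-/- and 0, 2, 2 and 2 in WT M2, and did not pass either (adjusted p = 0.0890 and 0.0720 from edgeR). Gbp9 had 3 counts in 1 M2 library labelled Ltb4r2-/- and 1 count in 1 WT M2 library.

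Gbp5 and Gbp7 were the other genes called in M2, each lower in 1 genotype. Gbp7 had 3, 2, 1 and 3 counts in M2 libraries labelled Ltb4r2-/-, against 12, 4, 17 and 18 in M0, and fell by 2.23 on the log2 scale (standard error 0.55, adjusted p = 0.00178 from edgeR), with no overlap in CPM. In WT it had 5, 0, 8 and 0 counts in M2, against 4, 4, 13 and 6 in M0 (-0.93, standard error 0.57, adjusted p = 0.250). Gbp5 had 0, 2, 1 and 0 counts in WT M2, against 8, 2, 11 and 4 in WT M0, and fell by 2.74 (standard error 0.78, adjusted p = 0.00800 from edgeR), with overlapping CPM and a log2 fold change of -3.72 without WT M2 replicate 2. In Ltb4r2-/- it had 6, 1, 2 and 0 counts in M2, against 4, 3, 4 and 0 in M0 (-0.09, standard error 0.74, adjusted p = 0.947). Among all genes tested, 15% were lower in Ltb4r2-/- M2 and 11.8% in WT M2. These M2 calls rest on a few counts a library, and in a fit of the compared libraries alone neither gene passed the filter on low counts.

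The genotypes were not shown to differ in these responses. The interaction of genotype with polarization could be estimated for the 4 genes with counts in every group, Gbp2, Gbp5, Gbp7 and Mir6381, and was called for 0 of them in M1 and in M2 by edgeR and by DESeq2, where 0.0328% of 3047 genes were called in each. For Mir6381 the response in Ltb4r2-/- minus that in WT was -0.03 in M1 (95% interval -0.50 to 0.44) and 0.32 in M2 (-0.15 to 0.80). Of the 4 genes, 0 had an unadjusted p under 0.05 in M1 and 1 did in M2, which was Gbp5 (2.65, standard error 1.12, unadjusted p = 0.0245, adjusted p = 1.00 from edgeR). Its value was 1.71 without Ltb4r2-/- M2 replicate 1 and 3.65 without WT M2 replicate 2.

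Over the 6 groups Mir6381 stood highest in M1, then in M2 and lowest in M0, and within each state the ranges of Ltb4r2-/- and WT libraries overlapped. The ranges of neighbouring states did not overlap. For Gbp2, Gbp3, Gbp4, Gbp5, Gbp6 and Gbp7 the M1 groups of both genotypes stood above all others with no overlap, and the M1 groups overlapped each other.

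The genes most like Gbp2 across the 24 libraries, by Pearson correlation of log2 CPM (prior count 2) and leaving out the GBPs and Mir6381, were the chemokine genes Ccl5 (0.983) and Cxcl9 (0.983), Nos2, the inducible nitric oxide synthase (0.983), Ptgs2, the inducible cyclooxygenase (0.981), and the cytokine gene Il7 (0.981), whose exons lie opposite those of Gm16685. Of the GBP genes, Gbp4 (0.975) and Gbp6 (0.969) came nearest, Mir6381 had 0.971, and Gbp7 had the lowest value at 0.920. These values mostly carry the step between M1 and the other states, where such genes are at or near 0 counts, and all points share the scaling of their library. Within the 8 M1 libraries the correlation with Gbp2 was 0.84 for Ccl5 and 0.58 for Nos2. It was -0.05 for Cxcl9, -0.07 for Ptgs2 and -0.23 for Il7. Among GBP genes it was 0.71 for Gbp3, 0.32 for Gbp5, 0.02 for Gbp4, -0.09 for Gbp6 and -0.45 for Gbp7. For Mir6381 it was 0.06.

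Other interferon-induced genes moved the same way in M1, where 27.2% of all genes tested were higher in Ltb4r2-/- and 26.9% in WT. Of 12 immunity-related GTPases and other interferon-induced GTPases, which act with GBPs at vacuoles or against viruses, 7 were tested and 7 were higher in M1 in each genotype. None of the 7 passed the filter on low counts in M0 or M2 libraries alone, so for them a difference from M0 was built into passing. Their median log2 fold change was 4.58 in Ltb4r2-/- and 4.78 in WT, the same with bounds in place of fits against 0 counts. Over all genes tested the medians were -0.0008 and -0.02, and many of those genes did not pass in that way. Iigp1, a GTPase that disrupts parasite vacuoles, was at least 83.2-fold higher in Ltb4r2-/- M1 and rose in WT (adjusted p = 2.82e-09 from edgeR), where with 1 count in M0 the ratio of summed CPM was 207 with an exact 95% counting interval of 36.6 to 8222. Mx1, an antiviral GTPase, was at least 40.3-fold higher in Ltb4r2-/- M1 and at least 28.5-fold higher in WT M1. Igtp, which keeps other GTPases of its family in check, rose in Ltb4r2-/-, where with 2 counts in M0 the ratio was 41.6 (10.96 to 353), and was at least 35.3-fold higher in WT.

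Of 15 genes of IFN-γ signalling, 4 were tested and 4 were higher in each genotype. Over all genes tested, 27.2% were higher in Ltb4r2-/- M1 and 26.9% in WT M1. Stat2, a transcription factor of type I interferon signalling, rose by 3.84 in Ltb4r2-/- (standard error 0.49) and by 3.69 in WT (standard error 0.50), and Irf7, a transcription factor whose exons lie opposite those of Phrf1, by 4.45 and 5.61 (standard errors 0.50 and 0.56). Of 10 inflammasome and pyroptosis genes, 2 were tested and both were higher, with medians of 3.57 in Ltb4r2-/- and 2.72 in WT. Aim2, a sensor of cytosolic DNA, rose in Ltb4r2-/-, where with 2 counts in M0 the ratio of summed CPM was 58.9 (exact 95% counting interval 15.7 to 495), and in WT its log2 fold change was 3.50 (standard error 0.69). Ninj1, which ruptures the membrane in pyroptosis, rose by 1.61 in Ltb4r2-/- and 1.94 in WT (standard errors 0.69 and 0.67, adjusted p = 0.048 and 0.0162 from edgeR). In M0 libraries alone none of the genes tested in these lists passed the filter on low counts, so for them too a difference from M0 was built into passing. In M2, Tgtp1, a GTPase with a near-identical copy in Tgtp2 and hence an uncertain count, was lower in Ltb4r2-/-. Its log2 fold change was -2.48 (standard error 0.65, adjusted p = 0.00305 from edgeR). Ninj1 was lower there too (-2.68, standard error 1.03, adjusted p = 0.0443 from edgeR), and in WT M2 0 genes of these lists were called. Over all genes tested, 15% were lower in Ltb4r2-/- M2, and in WT M2 15.2% were higher and 11.8% lower.

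The other GBP genes were too low for the fit. Gbp2b, which lies between Gbp3 and Gbp2 and had an ISRE match at -137 to -128, had 24 counts in the 4 Ltb4r2-/- M1 libraries and 26 in the 4 WT M1 libraries and 0 elsewhere. Gbp10 had 7 and 17 counts in the same groups and Gbp11, annotated as a polymorphic pseudogene, 4 and 2.

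By the counts as they stand, the summed level of macrophage markers was lower in M1 and in M2 than in M0. A sum does not show which of the markers fell or rose. Of 14 such genes 9 to 11 had a mean of at least 10 counts, depending on the group, and their summed level was 945 to 1333 CPM in Ltb4r2-/- M1 and 1125 to 1557 CPM in WT M1, against 2122 to 2412 and 2190 to 2526 CPM in M0. In M2 it was 973 to 1040 CPM in Ltb4r2-/- and 721 to 1385 CPM in WT. The summed level of 6 dendritic cell markers was 654 to 1053 CPM in Ltb4r2-/- M1 and 479 to 800 CPM in WT M1, against 63.1 to 103 and 27.2 to 50.4 CPM in M0. In M2 it was 123 to 174 CPM in Ltb4r2-/- and 100 to 169 CPM in WT. Xcr1, a chemokine receptor, carried that list in M1 (854 ± 163 CPM in Ltb4r2-/- and 652 ± 134 CPM in WT, SD, n = 4). Of the other markers, Flt3, Zbtb46 and Cd209a were at 0 in every group. Itgax was at 0 in M1 of both genotypes and Clec9a in Ltb4r2-/- M1, and both had counts in M0 and M2. In M2, 3 of the 6 markers had a mean of at least 10 counts, against 2 in M0 and 1 in M1. Of the markers of fibroblasts, neutrophils, B cells and T or NK cells 0 had a mean of 10 counts in a group, and of 5 erythroid markers 1 had, in Ltb4r2-/- M0. The part of these shifts in the levels of the GBP genes and Mir6381 was not tested.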

How the data were processed

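RNA of 24 BMDM libraries was sequenced. The authors trimmed reads (cutadapt), mapped them to mm10 (STAR) and made a count for each gene (HTSeq), and these deposited raw counts were used as they stand. Versions are not given in the sources used here. The deposited log2 values, which the authors normalized by RLE, were not used. Genes passing edgeR's filterByExpr (at least 10 counts, total at least 15) were scaled by TMM. The quasi-likelihood test of edgeR 4.0.16 was applied (limma 3.58.1, R 4.3.3), and p-values were adjusted after Benjamini and Hochberg over all genes tested, with a threshold of 0.05. Polarization and interactions came from 1 fit of 24 libraries, genotype comparisons from the 8 libraries of a state. Standard errors were derived from the log2 fold change and its F statistic, and 95% intervals use that fit's degrees of freedom. TMM factors of all 24 libraries scaled the CPM values. Exact permutation tests used scipy 1.17.1. The scripts were tested on simulated data.

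The members and lists were chosen with earlier results of these data known. Named besides the members are genes whose exons overlap theirs, the 5 genes most correlated with Gbp2, the 3 tested members of each list with the smallest p in WT M1 (1 of them is not reported here), and, chosen after their values were seen, Gbp2b, Gbp10, Gbp11, Mir6340, Tgtp1 and Xcr1. Positions are from GENCODE M21 (GRCm38), promoters and the mature microRNA from RefSeq (GRCm38.p6). The p-values measure the spread between libraries labelled as biological replicates. Alternatives were RLE factors or total counts, other count filters, DESeq2 1.42.0, other choices of libraries, a block for the replicate number, leaving out single libraries, and Gbp2 and Mir6381 summed.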

Additional observations from a re-analysis of the deposited data

Results flagged for a closer look

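Gbp7 in Ltb4r2-/- M0 replicate 2 stood apart from the other 3 libraries of its group, at 5.96 CPM (4 counts) against 23.3 to 25.8 CPM. It was the 1 of 19 combinations of gene and group, tested where the mean was at least 10 counts, that passed Dixon's limit, and chance gives about 1 in 20. Without this library the log2 fold change of Gbp7 was 1.06 between the genotypes in M0 (adjusted p = 0.908 from edgeR), 3.14 for Ltb4r2-/- M1 against M0 and -2.53 for Ltb4r2-/- M2 against M0.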

How the results depend on the processing

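RLE factors, total counts, DESeq2 and the replicate block changed no call of the genes tested in any comparison. Without the filter Gbp9 was also called in Ltb4r2-/- M1 (adjusted p = 1.17e-05), so that 8 genes were called there, and no other call changed. Total counts alone moved the median gene by -0.59 in Ltb4r2-/- M1 and -0.63 in WT M1 (507 genes higher and 1363 lower, and 477 and 1347, against 828 and 783, and 820 and 741, with TMM), and each M1 call stayed. A mean of at least 50 counts left Mir6381 alone in the fit, so that 1 gene was called in M1 and 1 in M2 in each genotype, and the compared libraries alone left 1 in M2 in each genotype and 6 in Ltb4r2-/- M1, where Gbp3 no longer passed the filter. With Gbp2 and Mir6381 summed, the Gbp2 values in M2 became 1.68 (Ltb4r2-/-) and 1.36 (WT) and its interaction with M1 became -0.023, since the sum is mostly Mir6381. The interaction of Mir6381 with M1 was 0.011 with the compared libraries alone. With each library left out, 7 genes were called in M1 and 2 to 3 in M2 in both genotypes, and 0 between genotypes and in interactions. The third was Gbp2 without Ltb4r2-/- M0 replicate 4 (4.00, adjusted p = 0.0387) and Gbp3 without WT M2 replicate 1 (4.10, adjusted p = 0.0496). Values that changed sign, none of them called, ranged for Gbp2 from -0.32 to 3.67 in WT M2, from -2.29 to 3.37 in the interaction with M1 and from -1.75 to 3.92 in that with M2, for Gbp5 from -1.04 to 0.34 in Ltb4r2-/- M2, for Mir6381 from -0.23 to 0.072 in the interaction with M1, and between genotypes from -0.13 to 0.17 for Mir6381 in M0 and, in M1, from -0.17 to 0.088 for Gbp5, -0.12 to 0.40 for Gbp6, -0.094 to 0.041 for Gbp7 and -0.092 to 0.022 for Mir6381. The difference in the share of Mir6381 was 0.00239 to 0.0769 percentage points. Same-numbered libraries of M0 and a polarized state correlated at -0.07 to 0.14 within a genotype, and those of the 2 genotypes at -0.21 to 0.10 within a state. For WT M1 and M0 each same-numbered value was above the highest other-numbered one, and for Ltb4r2-/- M1 and M0 only that of replicate 1. For M2 and M0 this held for replicates 1, 3 and 4 in both genotypes. The main fits used no pairs, and whether a number marks a shared mouse is not stated. With the replicate block 7 genes were called in M1 and 2 in M2 in each genotype. Genes at or under 3 counts in a group limit what this depth can show.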
